A study of Mus musculus with 15 samples.

Results

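The 9 interferon-stimulated genes described here were Irf1, Irf7, Stat2, Ifit1, Ifit3, Isg15, Gbp2, Gbp3 and Gbp7. They were taken by symbol from the 47643 symbols of the deposited table, and all 9 were found. The list was chosen with earlier results of these data known. RNA was sequenced from tibialis anterior, the muscle along the front of the shin, of female C57BL/6J mice in 4 groups, 49 days after tumour implantation or a mock injection. The control group (4 libraries) was mock-injected and received no tumour and no drug. The lisinopril group (3 libraries) was tumour-free and received lisinopril, which inhibits the angiotensin-converting enzyme. The melanoma group (4 libraries) carried a melanoma that causes cachexia, the wasting of muscle and fat, and the melanoma plus lisinopril group (4 libraries) carried the tumour and received the drug. The labels give an age of 7 weeks for every sample, without the point at which it was taken, and call the 15 libraries biological replicates. The design text calls the tumour a xenograft, while the extraction text refers to 3 weeks after injection of LLC cells. Levels are TPM, transcript abundance scaled to the same sum in every library, which corrects for transcript length, so that levels of different genes can be set side by side. The depth of the libraries is unknown, because TPM keeps no depth.

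Interferons are secreted proteins that cells release on viral infection and other immune signals. Type I interferons, such as interferon beta, act through a receptor whose kinases activate STAT2, which joins IRF9 in a complex that binds the interferon-stimulated response element (ISRE) in target promoters. Interferon gamma acts through the gamma-activated site (GAS) in target promoters and through IRF1, a transcription factor that is itself induced. IRF7 amplifies type I interferon transcription. IFIT1 and IFIT3 bind or help to bind foreign RNA, ISG15 is a ubiquitin-like modifier, and the guanylate-binding proteins (GBP) are GTPases that attack intracellular pathogens.

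Promoter stretches are shown for the 8 of 9 members that held a match to at least 1 of these elements; Gbp7 held both. Windows from 250 bases before to 50 bases after each RefSeq gene start (build GRCm38.p6) were searched on both strands for the ISRE core (GAAA, any 2 bases, then GAAA) and for GAS (TTCNNNGAA). All 9 members matched RefSeq, with 11 windows, since Gbp3 and Irf1 had 2 starts each. The ISRE core stood in 7 members, against 3.99% of 27025 genes and 3.44% of 32851 windows. GAS stood in Gbp7 and Irf1, against 9.55% of genes and 8.3% of windows. Irf7 held neither in its window. The stretches are written 5′ to 3′ on the strand of the gene, and capitals mark the matches, which overlap in Gbp3 and Isg15.
Isg15 (chr4:156200865-156200906, minus strand): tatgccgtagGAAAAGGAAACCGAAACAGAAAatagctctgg
Ifit1 (chr19:34640775-34640823, plus strand): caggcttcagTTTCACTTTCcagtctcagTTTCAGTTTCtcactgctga
Ifit3 (chr19:34583363-34583426, plus strand): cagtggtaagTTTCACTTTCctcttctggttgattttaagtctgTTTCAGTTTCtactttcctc
Stat2 (chr10:128270266-128270295, plus strand): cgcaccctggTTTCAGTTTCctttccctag
Gbp2 (chr3:142620594-142620623, plus strand): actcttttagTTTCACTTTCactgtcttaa
Gbp3 (chr3:142559989-142560024, plus strand): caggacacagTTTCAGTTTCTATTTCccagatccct
Gbp7 (chr3:142530220-142530302, plus strand): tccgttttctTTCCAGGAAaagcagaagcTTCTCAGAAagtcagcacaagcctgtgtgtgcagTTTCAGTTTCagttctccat
Irf1 (chr11:53769914-53769942, plus strand): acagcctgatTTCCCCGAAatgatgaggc
Isg15 carried 3 overlapping ISRE cores, the first starting 78 bases before the gene start. Ifit1 (104 and 85 bases before the start) and Ifit3 (156 and 122 bases) carried 2 separate cores each. In Gbp2, Gbp3 and Gbp7 the cores began 59, 45 and 53 bases before the start, and in Stat2 222 bases before it. The GAS match of Irf1 began 90 bases before its start, and those of Gbp7 106 and 87 bases before its start. A match describes the letters only and shows no binding. The 3 GBP genes are neighbours on chromosome 3 (Gbp7 142530342 to 142550149, Gbp3 142560026 to 142573209 and Gbp2 142620602 to 142638008, GENCODE annotation of the same build), and Ifit3 and Ifit1 lie close together on chromosome 19 (34583531 to 34588731 and 34640871 to 34650009). The distances above are from the RefSeq starts. For Gbp2 the GENCODE start differs and lies before the ISRE core, so by that annotation the core falls inside the gene.

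**Figure D1:**
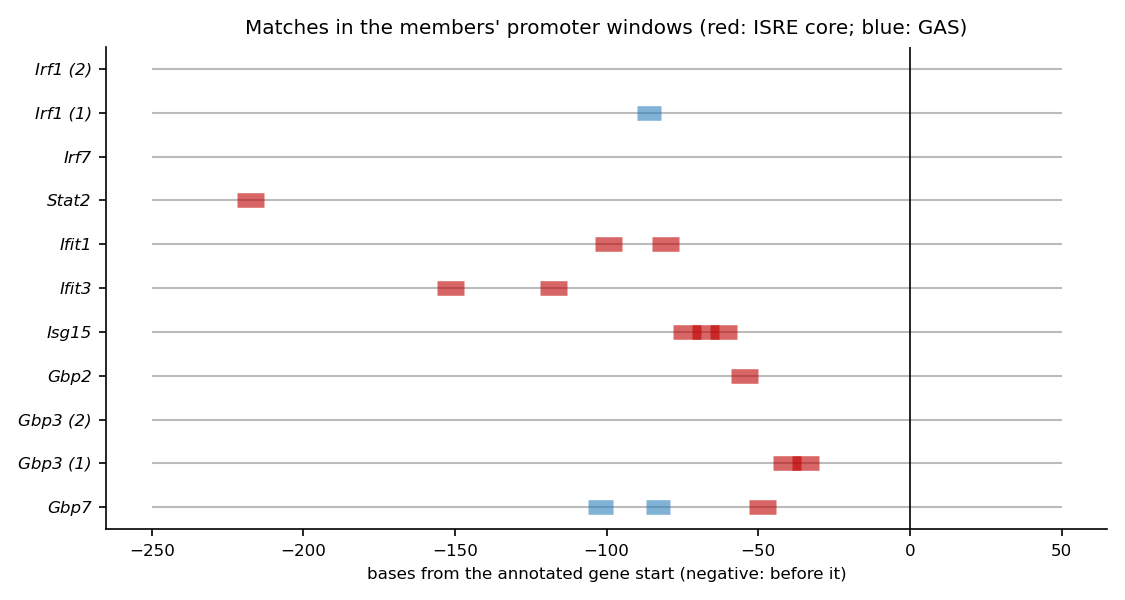
Positions of matches to the ISRE core (red) and GAS (blue) in the 11 promoter windows of the 9 members, in bases from the annotated gene start (vertical line, negative before it). All matches lie before this RefSeq start. Irf7 and the other windows of Gbp3 and Irf1 hold none.

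The levels were dominated by 1 library. Control 2, a tumour-free and untreated muscle, held the highest level of all 15 libraries for 9 of 9 members, and for 8 of 9 it held over 2 times the next highest level. Of the 11923 genes kept for testing, control 2 was the highest library for 19.1% and over 2 times the next highest for 3.52%. The 9 members together reached 651 TPM in control 2 and 14.6 to 43.5 TPM in each of the other 14 libraries. Values are given with and without it. Among the 14 others melanoma 2 was the highest library for 33.5% of all kept genes, but for 1 member, Gbp2.

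Isg15 was at 233 TPM in control 2, and at 3.68, 1.88 and 2.06 TPM in controls 1, 3 and 4. It was at 1.38, 3.07 and 2.92 TPM with lisinopril, 1.89, 1.95, 2.12 and 3.17 TPM with melanoma, and 1.39, 2.16, 3.00 and 1.52 TPM with melanoma plus lisinopril. Control 2 was 63.2 times the highest other library, while the other 14 libraries overlapped between all groups. Isg15 is among the first genes that type I interferon induces.

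Ifit1 was at 70.1 TPM in control 2, and at 1.20, 0.47 and 1.13 TPM in the other controls. With lisinopril it was at 0.59, 1.05 and 0.67 TPM, with melanoma at 0.37, 0.89, 0.62 and 1.27 TPM, and with melanoma plus lisinopril at 0.35, 1.10, 2.12 and 0.78 TPM. Its level in control 2 was 33.1 times the next highest, and below the highest library the groups overlapped.

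Ifit3, whose human counterpart stabilises IFIT1, was at 75.7 TPM in control 2 and at 2.23, 1.58 and 4.05 TPM in the other controls. The lisinopril libraries held 6.28, 2.94 and 3.59 TPM, those with melanoma 1.61, 3.02, 1.17 and 3.21 TPM, and those with melanoma plus lisinopril 0.65, 2.59, 4.62 and 1.04 TPM. Control 2 was 12.1 times the next highest library, lisinopril 1. Ifit3 has a close copy, Ifit3b, at 17.3 TPM in control 2 and at most 3.07 TPM elsewhere. How the authors counted reads shared by such copies, or by the GBP genes, is not given in the sources used here, so the split between copies is uncertain.

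Irf7, the amplifier of type I interferon transcription, was at 173 TPM in control 2 and at 3.50, 1.34 and 2.35 TPM in the other controls. In the lisinopril group it was at 1.18, 5.19 and 1.89 TPM, with melanoma at 1.31, 1.98, 2.40 and 4.08 TPM, and with melanoma plus lisinopril at 1.23, 1.42, 4.78 and 1.32 TPM. Control 2 stood 33.3 times above the next highest library, and each of the other 3 groups held 1 library of 4.08 TPM or more, with the rest at 2.40 TPM or less.

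Stat2, a subunit of the factor that binds the ISRE, was at 15.5 TPM in control 2 and at 2.92, 1.99 and 2.71 TPM in the other controls. With lisinopril it was at 2.59, 2.32 and 2.54 TPM, with melanoma at 4.18, 3.89, 3.69 and 3.12 TPM, and with melanoma plus lisinopril at 2.70, 4.05, 3.80 and 4.01 TPM. Control 2 was 3.70 times the next highest library. Without control 2, 7 of 8 tumour-bearing libraries lay above all 6 tumour-free libraries, and melanoma plus lisinopril 1 lay among them.

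Irf1, the factor downstream of interferon gamma, was the member least raised in control 2. It was at 16.4 TPM there and at 7.85, 5.12 and 11.1 TPM in the other controls. In lisinopril-treated muscle it was at 12.9, 7.74 and 6.04 TPM, with melanoma at 5.24, 7.09, 11.8 and 8.34 TPM, and with melanoma plus lisinopril at 3.38, 5.60, 3.47 and 5.84 TPM. Control 2 was 1.27 times the next highest library, and the 4 libraries with both tumour and drug overlapped the control and melanoma groups and lay below all 3 lisinopril libraries.

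Gbp2 was at 22.9 TPM in control 2 and at 5.27, 4.39 and 9.42 TPM in the other controls. The lisinopril libraries were at 6.87, 3.90 and 5.12 TPM, those with melanoma at 5.96, 10.6, 6.37 and 5.75 TPM, and those with melanoma plus lisinopril at 3.24, 10.3, 5.72 and 5.62 TPM. Control 2 was 2.15 times the next highest library, melanoma 2, and the groups overlapped.

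Gbp7 was at 23.3 TPM in control 2 and at 2.62, 2.90 and 4.92 TPM in the other controls. With lisinopril it was at 4.54, 2.06 and 2.73 TPM, with melanoma at 2.07, 2.85, 2.33 and 2.88 TPM, and with melanoma plus lisinopril at 0.98, 3.54, 2.55 and 2.19 TPM. Control 2 was 4.74 times the next highest library, and the groups overlapped.

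Gbp3 was the member whose tumour-bearing and tumour-free libraries did not overlap. It was at 21.8 TPM in control 2, 3.74 times the next highest library, and at 3.33, 3.20 and 5.83 TPM in the other controls. In the lisinopril group it was at 5.22, 2.35 and 2.28 TPM, with melanoma at 0.85, 1.497, 1.65 and 2.02 TPM, and with melanoma plus lisinopril at 0.66, 2.22, 1.66 and 1.25 TPM.

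**Figure D2:**
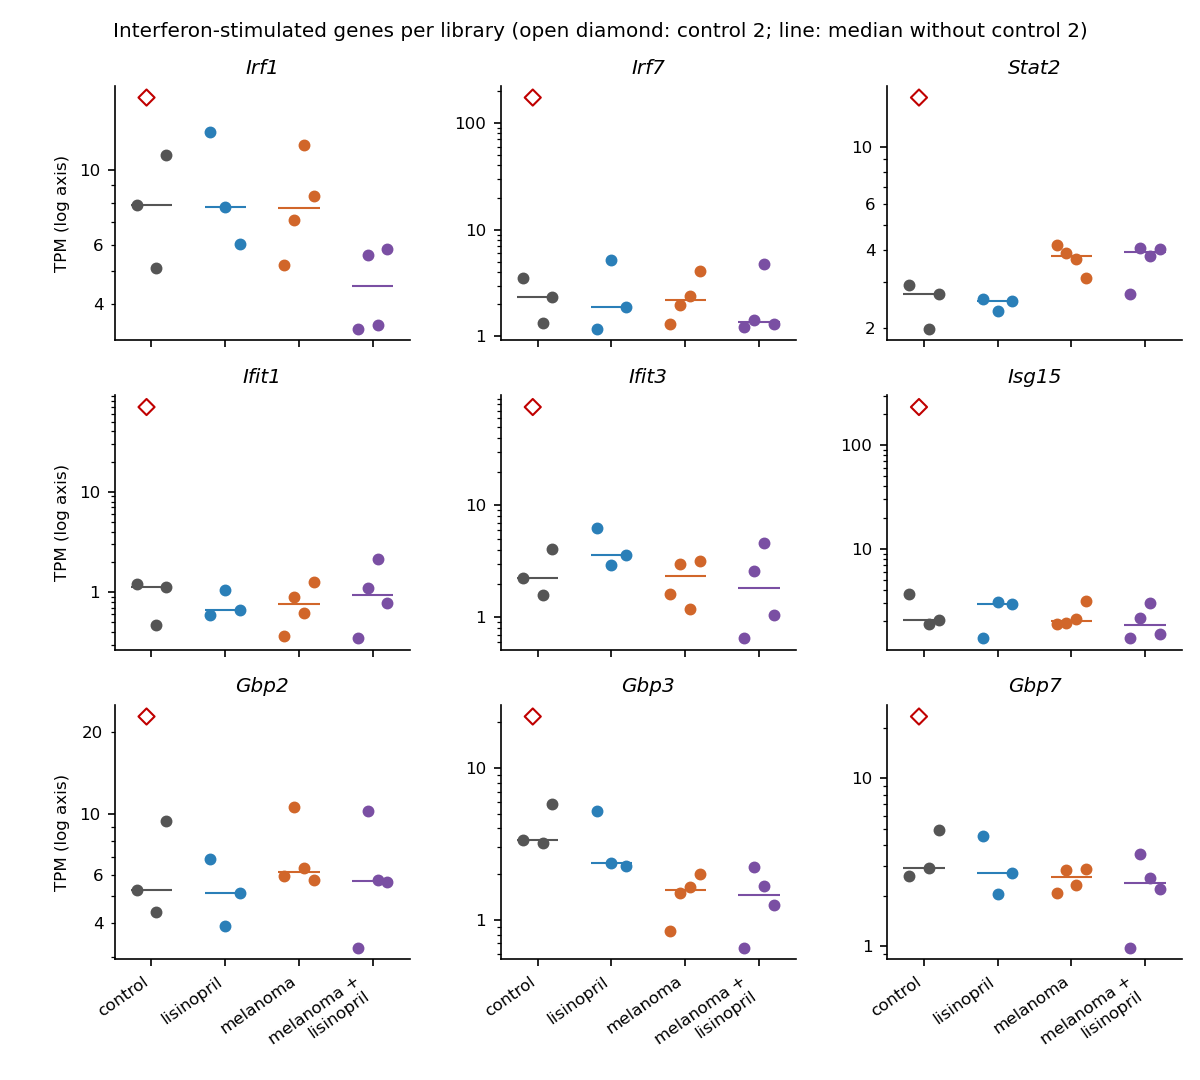
TPM of each member in each of the 15 libraries (log axis), by group; the open diamond is control 2 and lines are group medians without it. Control 2 is the highest library for all 9 members, and only Gbp3 has all 8 tumour-bearing libraries below all tumour-free ones.

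Over the 14 other libraries the members were low in this muscle. By median level the order was Irf1 (6.57 TPM), Gbp2 (5.74), Stat2 (3.02), Ifit3 (2.76), Gbp7 (2.68), Gbp3 (2.12), Isg15 (2.09), Irf7 (1.93) and Ifit1 (0.84 TPM). The ranges of every neighbouring pair in this order overlapped. Melanoma plus lisinopril 1 was the lowest of these 14 libraries for 6 of 9 members, while it was the lowest for 6.84% of all kept genes.

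Control 2 was high across the wider interferon response too. Of 25 tested genes of an antiviral list, 24 were highest in control 2 and 23 exceeded 2 times the next highest level. Rsad2, which makes an antiviral nucleotide, was at 50.9 TPM there and at most 1.93 TPM elsewhere, and Oas1a, a sensor of double-stranded RNA, was at 46.0 TPM against at most 1.36 TPM. All 10 antigen presentation genes were highest in control 2, with B2m, the light chain of class I molecules, at 824 TPM against 151 to 348 TPM. Of the other interferon-induced GTPases 7 of 11 were highest in control 2, but Gbp10 (6.58 TPM) lay below its highest other library at 41.1 TPM. Of 18 receptor and signalling genes 8 were highest in control 2, while Jak1 (40.9 TPM) lay within the range of the others. These examples were chosen after their values were seen.

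Of 11 interferon genes looked up, 9 were listed at 0 in all 15 libraries. Ifnb1, which encodes interferon beta, was listed at 2.41 TPM in control 2, at 0.063 TPM in melanoma 2 and at 0 in the other 13 libraries. Ifng, which encodes interferon gamma, was listed at 0.45 TPM in control 2 and at no more than 0.070 TPM in the others. No interferon gene passed the filter on low values, so none was tested.

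Transcripts of blood cells were high in the same library. The 4 haemoglobin genes summed to 23878 TPM in control 2 and to at most 4197 TPM elsewhere. Of 6 T and NK cell markers 5 were highest in control 2, led by Gzma (43.8 TPM, against at most 2.56) and Nkg7 (20.9 against at most 0.79 TPM), while the T cell gene Cd3e was at 0.44 TPM. The B cell gene Cd79a (20.0 against at most 0.56 TPM) was highest there as well, although the summed B cell list (193 TPM) was higher in lisinopril 1 (229 TPM). The plasmacytoid dendritic cell list summed to 158 TPM against 11.8 to 26.5 TPM, of which Bst2, itself induced by interferon, made 149 TPM. Siglech (0.93 against at most 0.48 TPM) and Ccr9 (0.36 against at most 0.14 TPM) were also highest in control 2, at low levels. Tcf4, the remaining marker of this list, was not (7.90 against at most 8.38 TPM). The summed neutrophil list (96.5 TPM, others 10.3 to 347 TPM) lay within the range of the other libraries. So did the muscle list (51535 TPM, others 39280 to 85334 TPM) and the monocyte and macrophage list (68.3 TPM, others 10.99 to 108 TPM). Within the latter, however, Ccr2 (7.79 against at most 2.23 TPM), Adgre1 (5.95 against at most 4.05 TPM) and Ly6c2 (17.5 TPM) were highest in control 2. Cd68, Csf1r, Cd163 and Mrc1 were not, with Cd68 at 15.2 TPM there and 75.9 TPM in melanoma 2. In bulk tissue, fewer cells of a type and less RNA per cell cannot be told apart, and the part of these cells in the members' levels was not tested. In the 14 other libraries haemoglobin ran from 159 to 4197 TPM and the summed members from 14.6 to 43.5 TPM, and a relation between them was not tested.

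**Figure D3:**
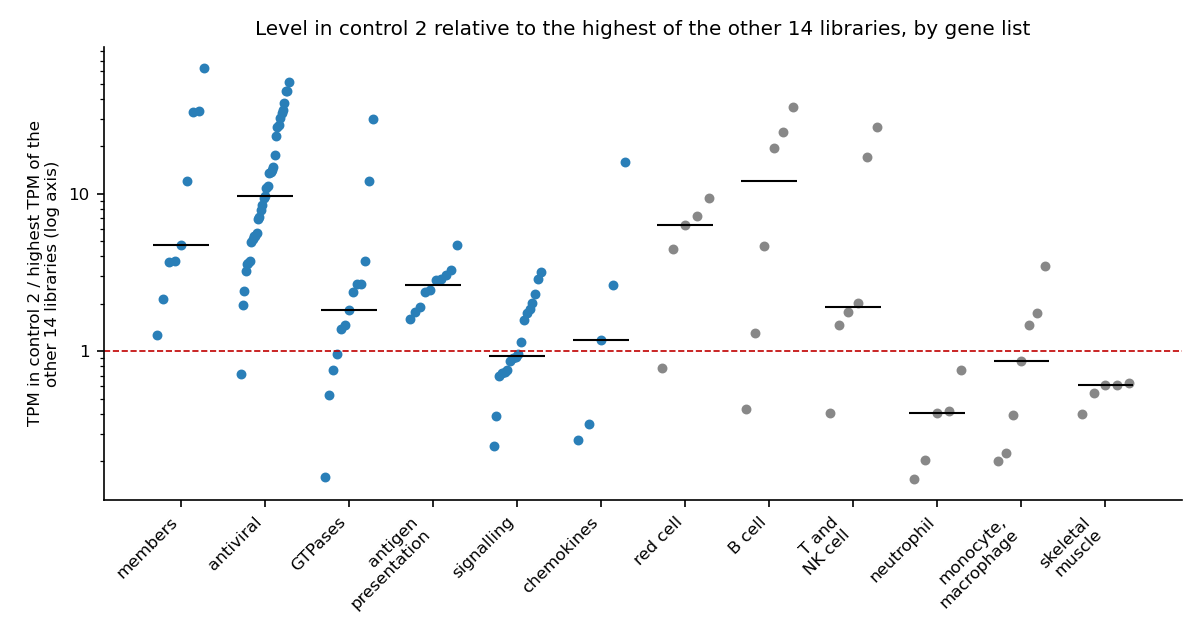
Level in control 2 divided by the highest level of the other 14 libraries (log axis) for each gene of the interferon lists (blue) and cell type marker lists (grey); black lines are list medians and the dashed line is a ratio of 1. The members run from 1.27 to 63.2, and the skeletal muscle markers all lie below 1.

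The tumour effect averaged over both drug arms compared 8 tumour-bearing with 7 tumour-free muscles, by limma on log2(TPM + 1). Gbp3 fell, from 3.28 ± 1.68 TPM with lisinopril (SD, n = 3) and 8.55 ± 8.94 TPM in control (n = 4) to 1.503 ± 0.49 TPM with melanoma (n = 4) and 1.45 ± 0.66 TPM with melanoma plus lisinopril (n = 4). Its log2 fold change on the log2(TPM + 1) scale was -1.17 ± 0.32 (SE, adjusted p = 0.0256), and this scale understates changes of low genes. Without control 2 the tumour-free mean was 3.70 ± 1.49 TPM (n = 6) against 1.48 ± 0.54 TPM (n = 8), and Gbp3 fell by 0.90 ± 0.20 (adjusted p = 0.00666). All 8 tumour-bearing libraries lay below every tumour-free library with and without control 2, which held for 0.839% of all genes with it and 1.93% without it. In the 15-library fit the call ended without lisinopril 1 (-1.02, adjusted p = 0.0766) and with no filter on low values (adjusted p = 0.0571).

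Gbp3 was the only 1 of 9 members past the threshold over 15 libraries, a share below the 18% of all genes that passed. Without control 2, 2 of 9 passed, Gbp3 lower and Stat2 higher, against 33.2% of all genes. Stat2 was at 2.51 ± 0.33 TPM in the 6 tumour-free and 3.68 ± 0.51 TPM in the 8 tumour-bearing muscles (log2 fold change 0.41 ± 0.11, adjusted p = 0.0132), while with control 2 its change was 0.13 ± 0.28 (adjusted p = 0.750). No member lay above every tumour-free library in all 8 tumour-bearing libraries, which 1.49% of all genes did, or 9.23% without control 2.

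The size of the Stat2 change depended on scaling. The median of all genes was 0.17 in this contrast and 0.21 without control 2, and quantile normalization brought it to 0.00073 and -0.0018. Stat2 then rose by 0.23 without control 2 under median-ratio rescaling (adjusted p = 0.0457), and missed the threshold under quantile normalization (0.20, adjusted p = 0.0702). Over 15 libraries it turned to -0.012 and -0.041 under these scalings. Gbp3 stayed past the threshold under each of them.

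The other 7 members did not pass. Over 15 libraries they ran from -1.05 ± 0.59 for Ifit3 (adjusted p = 0.1999) to -0.065 ± 0.29 for Gbp2 (adjusted p = 0.888), with large errors where control 2 was far above its group. Without control 2, Ifit3 was at -0.49 ± 0.28 (adjusted p = 0.182), Irf1 at -0.39 ± 0.21 (adjusted p = 0.166), Gbp7 at -0.32 ± 0.19 (adjusted p = 0.20), Isg15 at -0.14 ± 0.17 (adjusted p = 0.546) and Irf7 at -0.10 ± 0.28 (adjusted p = 0.793). Ifit1 (0.034 ± 0.18, adjusted p = 0.896) and Gbp2 (0.15 ± 0.22, adjusted p = 0.603) changed sign when control 2 was left out. Irf1 passed under median-ratio rescaling and quantile normalization, at -0.69 and -0.70 over 15 libraries and -0.60 and -0.62 without control 2 (adjusted p from 0.0323 to 0.0450). The median of the 9 members moved from -0.63 to -0.14 when control 2 was left out.

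**Figure D4:**
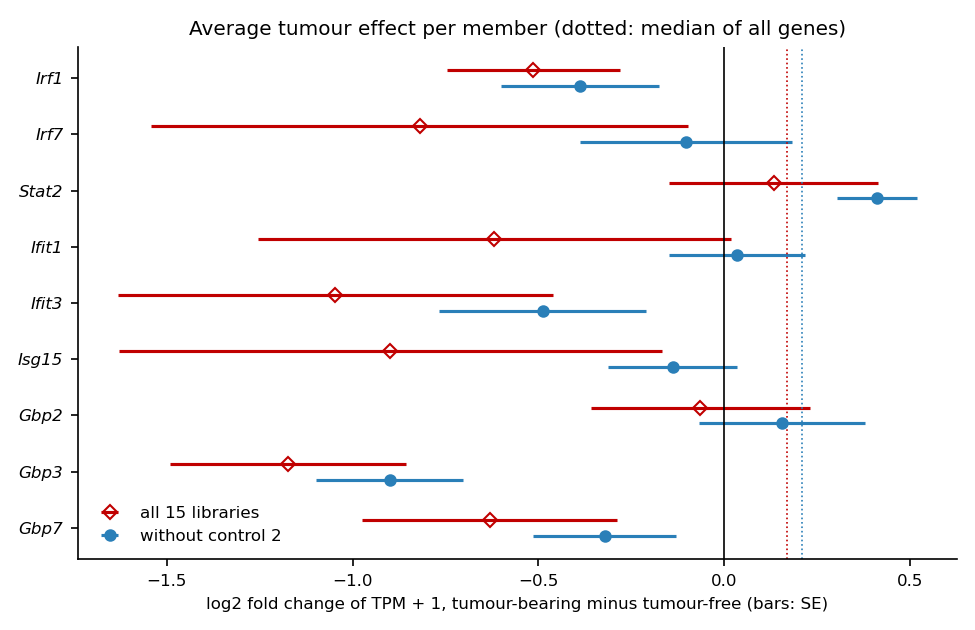
Average tumour effect of each member (log2 fold change of TPM + 1, bars are SE) over all 15 libraries (open diamonds) and without control 2 (filled circles); dotted lines mark the median of all genes, 0.17 and 0.21. Errors of Isg15, Irf7, Ifit1 and Ifit3 shrink without control 2, Gbp3 stays below 0 and Stat2 lies above it.

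Lymphocyte and myeloid transcripts moved with the same contrast. The 6 B cell markers summed to 34.0 to 229 TPM in the 6 tumour-free libraries without control 2 and to 2.62 to 21.4 TPM in the 8 tumour-bearing libraries. Of the 3 B cell markers tested Ighm, the immunoglobulin heavy chain, fell (-3.58 ± 0.44, adjusted p = 5.97e-04), Igkc was at -2.13 (adjusted p = 0.0516) and Cd79b at -0.36 (adjusted p = 0.513). Gbp3 ran from 2.28 to 5.83 TPM in the 6 tumour-free libraries without control 2 and from 0.66 to 2.22 TPM in the 8 tumour-bearing libraries. All 5 neutrophil markers and 3 of 7 monocyte and macrophage markers rose. The part of these cells in the change of Gbp3 or Stat2 was not tested.

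**Figure D5:**
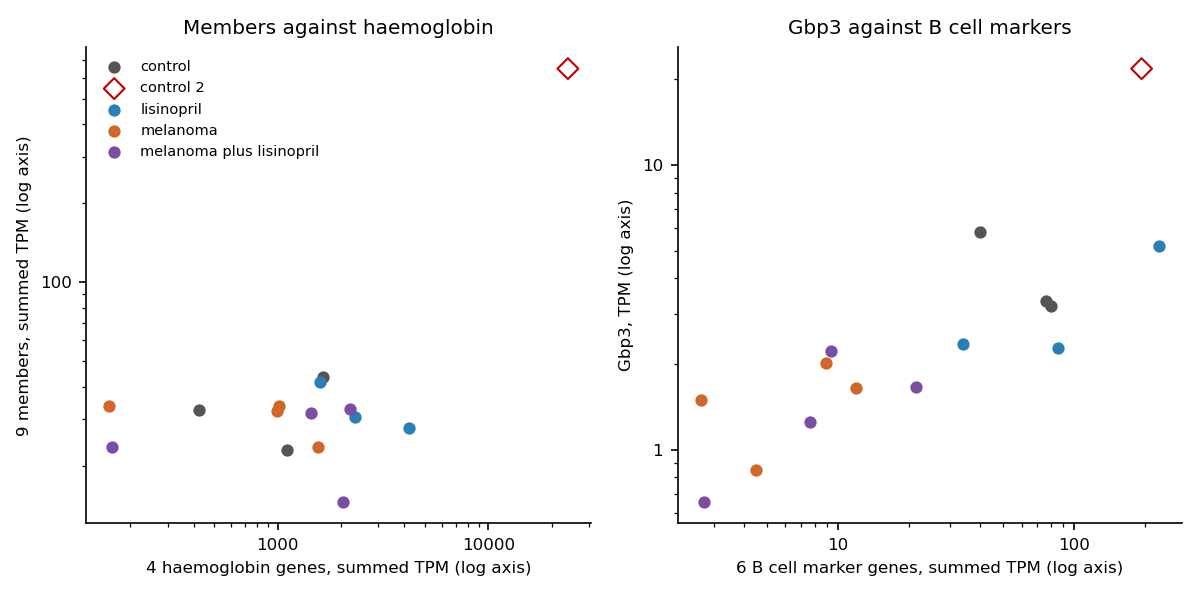
Left, summed TPM of the 9 members against summed haemoglobin TPM per library; right, Gbp3 against the summed TPM of 6 B cell markers (all axes log, colours are groups, the open diamond is control 2). Control 2 lies at 651 and 23878 TPM on the left; on the right the tumour-free libraries lie above the tumour-bearing ones on both axes.

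Counts of other interferon genes are read against all genes, of which 14.5% rose and 3.45% fell over 15 libraries, and 28% and 5.23% without control 2. Under median-ratio rescaling 9.45% rose and 9.81% fell over 15 libraries, and 14.7% and 15.2% without control 2. Quantile normalization gave 9.86% and 9.85%, and 14.4% and 16.4%. Of the other GTPases 0 of 11 rose and 3 fell: Gbp4 (-1.04 ± 0.27, adjusted p = 0.0206), a further guanylate-binding protein, and the paralogs Tgtp2 (-1.48 ± 0.42, adjusted p = 0.0288) and Tgtp1 (-1.17 ± 0.33, adjusted p = 0.0299). Over 15 libraries 6 fell under median-ratio rescaling and 7 under quantile normalization. The same 3 fell without control 2, and 6 there under either scaling. The median of the 11 was -0.73, and -0.59 without control 2, below the median of all genes.

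Of 10 antigen presentation genes 3 fell. Psmb9 and Psmb10, subunits of the immunoproteasome, changed by -0.76 ± 0.18 (adjusted p = 0.0171) and -0.61 ± 0.17 (adjusted p = 0.0278), and Tap1, the peptide transporter, by -0.83 ± 0.27 (adjusted p = 0.0453). Psmb9 was at 2.05 ± 0.30 TPM in the 6 tumour-free muscles without control 2 and at 1.02 ± 0.30 TPM in the 8 tumour-bearing ones, and, like Psmb10 and Gbp3, did not overlap between them. Without control 2 Psmb8 fell as well (-0.41 ± 0.13, adjusted p = 0.0297). Under median-ratio rescaling 5 fell, or 6 without control 2, and under quantile normalization 4 fell, or 7 without control 2. None of the 10 rose in these fits.

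The antiviral list, tested for 25 of 35 genes, had 0 calls over 15 libraries. Of its genes 1, Ifit3b, was past an unadjusted p of 0.05, a cut that at least 18% of all genes met. Its genes with the highest mean level were Ifitm3 (0.62 ± 0.31, adjusted p = 0.152), which blocks viral entry, and Ifi27 (-0.19 ± 0.17, adjusted p = 0.413). Without control 2, 6 rose and 1 fell, a share of rises below that of all genes, and the counts were 4 and 3 under median-ratio rescaling and 4 and 5 under quantile normalization. Chosen after their values were seen, Oas2 (0.68 ± 0.12, adjusted p = 0.00195), Ifitm3 (0.90 ± 0.16, adjusted p = 0.00226), Trim25 (0.90 ± 0.19, adjusted p = 0.00539) and Adar (0.44 ± 0.11, adjusted p = 0.0124) rose, and also did so under the 3 other scalings, whereas Samd9l and Trim30a rose only without rescaling. Ifit3b, the copy of Ifit3, fell (-0.51 ± 0.18, adjusted p = 0.0443). Oas2 was at 0.72 ± 0.28 TPM in the 6 tumour-free and 1.76 ± 0.34 TPM in the 8 tumour-bearing muscles, and at 38.4 TPM in control 2.

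Of 18 signalling genes, Socs3, a feedback inhibitor of cytokine receptors that interleukin-6 also induces, rose by 2.31 ± 0.42 (adjusted p = 0.00423). It was at 11.8 to 31.9 TPM in the 6 tumour-free libraries without control 2, at 69.2 TPM in control 2 and at 31.1 to 276 TPM in the tumour-bearing libraries. Irf5 fell (-1.16 ± 0.36, adjusted p = 0.0391). Without control 2, 7 rose, among them Irf9, the partner of STAT2 (0.46 ± 0.12, adjusted p = 0.0124), and the kinase Jak2 (0.52 ± 0.12, adjusted p = 0.00990), both named after their values were seen. Only Socs3 and Ifngr1 of these 7 passed there under every scaling, and the falls went from 1 to 3 under median-ratio rescaling and 2 under quantile normalization. The 3 chemokines tested gave 0 calls over 15 libraries, with 2 past an unadjusted p of 0.05 (at least 18% of all genes), Cxcl10 and Ccl5. Those with the highest mean level were Ccl2 (-0.049 ± 0.60, adjusted p = 0.961) and Ccl5 (-1.04 ± 0.45, adjusted p = 0.102), and Ccl5 fell without control 2 (-0.59 ± 0.15, adjusted p = 0.0107). Both Ccl5 and Cxcl10 reached 1 TPM only in tumour-free libraries, with at most 0.83 and 0.86 TPM in tumour-bearing ones. They thus passed the filter on low values only through the group where they are high, and their lower tumour values are partly selected by it.

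Within each drug arm 0 of 9 members passed. Melanoma against control, the tumour effect without the drug, passed for 0.646% of all genes, and for 4.95% without control 2. Gbp3 changed by -1.57 ± 0.43 there (adjusted p = 0.102, and 0.0518 without control 2), the 1 member with an unadjusted p under 0.05. Melanoma plus lisinopril against lisinopril, the tumour effect with the drug, passed for 1.48% of all genes and 4.87% without control 2. There Gbp3 changed by -0.78 ± 0.47 (adjusted p = 0.304), Stat2 by 0.40 ± 0.41 (adjusted p = 0.547) and Irf1 by -0.80 ± 0.34 (adjusted p = 0.185), the 1 member with an unadjusted p under 0.05. The number of all genes past this unadjusted cut is not given here for these tumour contrasts, so the single members have no background beside them. Stat2 in melanoma against control was at -0.14 ± 0.38, and at 0.42 ± 0.15 without control 2 (adjusted p = 0.101). The difference between the arms, the interaction, passed for 0 of 9 members and 0% of all genes, with 0 members and 151 genes past an unadjusted p of 0.05.

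Lisinopril made no call among the members. Against control, lisinopril without tumour passed for 0 of 9 members and 0% of all genes, with or without control 2, with 0 members and 461 genes past an unadjusted p of 0.05. All 9 members were below 0, with a median of -0.75, but without control 2 the median was -0.040 and 3 were above 0. The median of all genes was also below 0, at -0.18 over 15 libraries and -0.11 without control 2. With tumour, melanoma plus lisinopril against melanoma passed for 0 of 9 members and 0% of all genes, with 189 genes past an unadjusted p of 0.05. Irf1 was the 1 member among those, at 8.13 ± 2.78 TPM with melanoma (n = 4) and 4.57 ± 1.33 TPM with both (n = 4; log2 fold change -0.69 ± 0.32, adjusted p = 1.000). The comparisons share groups, so these values are not independent of each other.

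Across the 15 libraries the members moved together, which followed control 2. The 36 pairs of members had a median Pearson r of 0.80 (0.41 to 0.98) on log2(TPM + 1) over 15 libraries, and 0.30 (-0.53 to 0.85) over the 14 others. Over the 14, Gbp3 and Gbp7 (0.85), neighbours on chromosome 3, Isg15 and Irf7 (0.84), Ifit1 and Irf7 (0.77) and Ifit3 and Gbp7 (0.74) had the highest values, and Gbp3 and Stat2 the lowest (-0.53). The genes outside the list closest to the members' mean were Xaf1 (0.98), Ifi47 (0.98), Uba7 (0.97), Cmpk2 (0.97) and H2-T23 (0.97) over 15 libraries. Over the 14 they were Ifi47 (0.81), Gbp5 (0.79), Slc25a42 (0.78), Polr3k (0.77) and Cpt1a (0.75), so that Ifi47, an interferon-inducible GTPase, was on both lists. These correlations are descriptions over libraries that share group, scaling and tissue makeup.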

How the data were processed

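The authors deposited 1 table of TPM for 15 libraries, made against mouse build mm10 per the submitters' processing notes. Per the labels' protocols, libraries were made with a TruSeq stranded mRNA kit and run on an Illumina NovaSeq instrument. The aligner, the counting program, the annotation and any filter were not given in the sources used here. The deposited TPM have the same sum in every column, so the depth is unknown and no counting interval is printed. Groups follow the treatment label. The members and all gene lists were chosen with earlier results of these data known.

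Genes reaching 1 TPM in 3 or more libraries (11923 of 21659 above 0) were fitted as log2(TPM + 1), 1 mean per group, by limma 3.58.1 (R 4.3.3) and eBayes with trend (11 residual and 3.80 prior degrees of freedom). Without control 2 the same genes were fitted (10 and 4.03). Tests were two-sided, with Benjamini-Hochberg adjustment over all genes of a contrast and a threshold of 0.05. The fit was tested on simulated data. Named genes were the 9 members, up to 4 genes of each interferon list with the smallest adjusted p in the average tumour effect (or 2 with the highest mean), blood cell markers, and the 5 genes most like the members' mean. Promoter sequences came from RefSeq (GRCm38.p6), gene positions from GENCODE M21. Alternatives were another pseudocount, filter, scaling, variance model, quality weights, the replicate block, and leaving out libraries. Figures were drawn with matplotlib 3.10.9 in Python 3.11.15. The main fit did not pair samples by replicate number.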

Additional observations from a re-analysis of the deposited data

Results flagged for a closer look

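In 7 of 27 sets of 4 libraries of 1 group for 1 member, the highest or lowest library stood apart from the other 3. The rule was Dixon's criterion on the log2(TPM + 1) scale, which chance meets in about 1 in 20 independent sets. These sets reuse the same libraries and are not independent, and the share over all genes was not computed. In 4 of the 7 the library was control 2. Isg15 (233 TPM), Irf7 (173 TPM), Ifit1 (70.1 TPM) and Stat2 (15.5 TPM) were each far above the other 3 controls there. In melanoma 2, Gbp2 was at 10.6 TPM, above the other 3 melanoma libraries. In melanoma plus lisinopril 3, Irf7 was at 4.78 TPM, above the rest of its group. In melanoma plus lisinopril 1, Stat2 was at 2.70 TPM, below the rest of its group and within the range of the tumour-free libraries.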

How the results depend on the processing

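The number of members past the threshold stayed at 0 for the drug contrasts, the interaction and melanoma plus lisinopril against lisinopril under every alternative run. For melanoma against control it was 1 (Gbp3) with quantile normalization and with sample quality weights. For the average tumour effect, 1 over 15 libraries, it was 0 with no filter, 0 with a mean of at least 5 TPM (which removes Gbp3, Gbp7 and Stat2), 2 (Gbp3 and Irf1) with median-ratio rescaling or quantile normalization, 2 (Gbp3 and Stat2) without control 2 and melanoma 2 together, and 0 (without lisinopril 1) to 2 (without control 2) when single libraries were left out. With control 2 left out, an alternative set chosen after the data were seen, it was 2 (Gbp3 and Stat2), 3 (with Irf1) under median-ratio rescaling, 2 (Gbp3 and Irf1) under quantile normalization, 0 with the stricter filter and 5 (Gbp3, Gbp7, Ifit3, Irf1 and Stat2) with quality weights. Gbp3 was called in all 23 of these that tested it. Stat2 in melanoma against control, -0.14, turned to 0.26 with quality weights and 0.40 without control 2 and melanoma 2, and ran from -0.40 to 0.42 without single libraries. In the average tumour effect Stat2 turned to -0.012 (median-ratio) and -0.041 (quantile), Gbp2 to 0.064 and Ifit1 to 0.016 without control 2 and melanoma 2, and single libraries moved Gbp2 from -0.20 to 0.15 and Ifit1 from -0.90 to 0.034. Without control 2, Gbp2 turned to -0.054 (median-ratio), -0.076 (quantile) and -0.21 (quality weights), and Ifit1 to -0.060, -0.081 and -0.080 under the same and to -0.034 without mitochondrial genes. Single libraries then moved Ifit1 from -0.074 to 0.13 and Irf7 from -0.27 to 0.11. The cause of these turns was not tested. The member counts are to be read against all genes called, and the number of genes tested changes with the filter. In the average tumour effect all genes called numbered 2141, with 1337 to 4660 under the alternatives and 743 to 3959 without single libraries. Without control 2 they numbered 3959, with 2760 to 5630 and 2349 to 4439. In melanoma against control they numbered 77, with 5 to 1710 and 17 to 590.

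With the replicate number as a block the members called were 1 in the average tumour effect (2 without control 2) and 0 in the other contrasts, and the sign of 1 member turned, Ifit1 at -0.00498 without control 2. All genes called moved from 177 to 356 in melanoma plus lisinopril against lisinopril, and from 77 to 120 in melanoma against control. Libraries of the same number had correlations of their deviations from -0.15 to 0.36 over 21 pairs, with a median of 0.083. For the 63 pairs of different number these ran from -0.42 to 0.36, with a median of -0.035. These values do not settle whether the numbers pair the samples.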
